A study of Mus musculus with 8 samples.

Results

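The *Dlk1*-*Dio3* domain of mouse chromosome 12 is an imprinted gene cluster, and 7 of its genes were followed here in embryos at embryonic day 8.5 (E8.5). The genes were *Begain*, *Dlk1*, *Meg3*, *Rtl1*, *Rian*, *Mirg* and *Dio3*, in that order along the chromosome in the RefSeq annotation. They were found on the array by the RefSeq accession that names each probe, without its version, which gave 9 probes for 6 genes among 20660 genes matched in all. No probe carried an accession of *Rian*. The forward-strand intervals below that start at 110842154 and 110973190 (mm9) are as far apart as the annotated starts of *Rian* and *Mirg* (GRCm38.p6). Whether the probes of these intervals read those genes was not tested. Of the 9 probes 8 passed the expression filter, and they stood for 5 genes. Set beside them were 104 probes that the array design names only by an interval and a strand on chromosome 12, of the kind designed for long non-coding RNAs, within a window of 1 Mb set for the domain (build mm9, first interval from 110653148, last to 111333890). The domain had been chosen by values of the father contrast on these same arrays, among them the rise of an interval probe described below, so that for these genes and intervals every value by father is a description and carries no test.

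Every embryo, in both groups, carried 1 copy of the hypomorphic *Eed* allele l7Rn5-1989SB, under which EED, a subunit of the Polycomb complex that methylates histone H3, works poorly. The 4 embryos of the HOM father group had homozygous (*Eed* hypo/hypo) fathers and the 4 of the HET father group had heterozygous (*Eed* hypo/wt) fathers, with 2 females and 2 males in each group, wild-type mothers and a mixed C57bl6/129 background. Each embryo was measured whole on 1 single-colour array. The study names fewer sires than embryos, so some embryos share a father, and p-values measure the spread between embryos and not between fathers. It also states that the fathers of both groups were littermate brothers. The labels do not tie embryos to fathers, so this pairing was not fitted. All arrays of 1 father group lay on 1 slide, so slide and father cannot be told apart. Between 51.9% and 60.8% of spots were well above background, and no spot was saturated. Signals are given on the log2 scale relative to the 75th percentile of their array, which is 0, and were not compared between probes. In whole embryos, fewer cells of a type and less RNA per cell cannot be told apart.

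Genes of this domain are expressed from 1 parental chromosome according to an imprint that is set in the germline, where the intergenic control region between *Dlk1* and *Meg3* is methylated in sperm and not in the oocyte. *Dlk1*, *Rtl1* and *Dio3* code for proteins and are expressed mainly from the paternal chromosome. *Meg3*, *Rian* and *Mirg* are non-coding RNAs expressed from the maternal chromosome, and they carry snoRNAs and a large cluster of microRNAs. *Begain*, at the edge of the cluster, codes for a protein of the postsynaptic density. The arrays measure total RNA, so neither allele could be read apart from the other.

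The reference sequences show what the arrays did and did not measure at this domain. The RefSeq tables (build GRCm38.p6) list 114 mature microRNAs from 61 genes between *Begain* and *Dio3*, of which 29 lie within the bounds of *Rtl1*, 19 within *Mirg*, 6 within *Rian* and 3 within *Meg3*. The other microRNAs lie within none of the genes followed here. The gene probes read longer transcripts and not these short products. No probe was matched by accession to *Rian*, and the *Rtl1* probe was at background on every array. The following 5 lie within the bounds of *Rtl1*, with the seed (bases 2 to 8) in capitals.
miR-431-5p: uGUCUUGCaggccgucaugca
miR-433-3p: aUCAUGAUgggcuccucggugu
miR-127-3p: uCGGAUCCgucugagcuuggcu
miR-434-3p: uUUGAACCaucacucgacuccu
miR-136-5p: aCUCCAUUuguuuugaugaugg
MicroRNAs of the *Rtl1* region on the opposite strand are complementary to the *Rtl1* transcript and are known to cleave it. The next 4 come from within *Mirg*, the host that the *Mirg* probe below measured.
miR-154-5p: uAGGUUAUccguguugccuucg
miR-377-3p: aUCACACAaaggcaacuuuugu
miR-409-3p: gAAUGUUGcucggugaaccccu
miR-410-3p: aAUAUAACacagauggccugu
Of all seeds in the cluster 9 were shared by 2 differently named microRNAs, and the 3 pairs printed here join members that come from different hairpins.
miR-379-3p: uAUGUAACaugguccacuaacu
miR-411-3p: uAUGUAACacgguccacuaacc
miR-379-5p: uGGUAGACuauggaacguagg
miR-1193-5p: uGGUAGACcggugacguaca
miR-410-5p: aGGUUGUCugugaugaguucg
miR-494-5p: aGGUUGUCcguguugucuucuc

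Promoter sequence, taken as the 250 bases before the annotated start, was held for 6 of the 7 genes (build GRCm38.p6). The CG dinucleotide, the substrate of DNA methylation, is in capitals, and its letters read the same on both strands. Among 32851 promoter windows of the same length the median held 6 CG, and 43.0% held at least the 8 of *Dlk1*, 37.8% at least the 10 of *Mirg*, and 16.3% at least the 21 of *Dio3*. Of the 2 annotated starts of *Meg3* the upstream one held 10 and the other, chr12:109545148-109545397, held 0. The 5 annotated starts of *Begain* held 22 to 37, and the start of *Rian* held 0. The 4 windows below belong to genes whose signal is described next. The *Mirg* window holds the mature microRNAs miR-668-5p, miR-668-3p and miR-485-3p on the same strand, so only the annotated start makes it a promoter window here.
*Dlk1*, chr12:109452573-109452822, + strand, 8 CG: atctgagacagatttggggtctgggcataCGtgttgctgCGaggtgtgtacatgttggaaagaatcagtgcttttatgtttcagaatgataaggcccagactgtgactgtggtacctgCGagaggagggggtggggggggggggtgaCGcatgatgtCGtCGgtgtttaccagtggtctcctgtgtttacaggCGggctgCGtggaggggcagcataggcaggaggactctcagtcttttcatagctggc
*Meg3*, upstream start, chr12:109540746-109540995, + strand, 10 CG: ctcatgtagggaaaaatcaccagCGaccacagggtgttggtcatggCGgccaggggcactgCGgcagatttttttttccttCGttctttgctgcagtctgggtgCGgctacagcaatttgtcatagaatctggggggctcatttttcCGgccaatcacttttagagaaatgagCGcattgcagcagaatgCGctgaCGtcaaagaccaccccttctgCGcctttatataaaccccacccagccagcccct
*Mirg*, chr12:109734731-109734980, + strand, 10 CG: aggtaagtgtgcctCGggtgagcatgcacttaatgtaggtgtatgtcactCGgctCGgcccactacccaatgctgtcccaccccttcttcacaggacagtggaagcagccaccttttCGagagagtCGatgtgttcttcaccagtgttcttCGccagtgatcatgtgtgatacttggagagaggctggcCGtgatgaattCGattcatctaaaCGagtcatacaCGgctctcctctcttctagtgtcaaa
*Dio3*, chr12:110278980-110279229, + strand, 21 CG: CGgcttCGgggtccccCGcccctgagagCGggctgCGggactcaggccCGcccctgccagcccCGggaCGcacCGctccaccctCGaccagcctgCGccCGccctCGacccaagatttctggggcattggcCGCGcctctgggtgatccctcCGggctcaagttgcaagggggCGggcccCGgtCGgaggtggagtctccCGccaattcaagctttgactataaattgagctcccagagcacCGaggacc

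The genes of the domain differed little between the father groups. Of the 8 tested probes, 0 reached 2-fold, 6 had a lower mean in embryos of HOM fathers and 2 a higher mean, and the differences ran from -0.31 for *Begain* to 0.30 for *Dio3* on the log2 scale. The median difference was -0.09, against -0.02 over all 29715 probes tested. By the study's limits (adjusted p below 0.01 and at least 2-fold, limma) 0 of the 8 were called, where 1.27% of all tested probes were called. In 3 of the 8, every embryo of HOM fathers lay below every embryo of HET fathers, as did 13.0% of all tested probes. In 0 of the 8 did every embryo of HOM fathers lie above, as did 14.1% of all tested probes. The count of 3 depended on the scaling and was 1 (*Begain*) after quantile normalisation and after another background correction, and 5 when arrays were centred on their median, a scaling that moved the median difference of all tested probes to -0.21.

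*Dlk1* codes for a transmembrane protein with epidermal growth factor-like repeats that is related to Notch ligands and restrains adipocyte differentiation. Its first probe (A_66_P117477) gave 6.33, 6.33, 6.15 and 6.36 in embryos 1 to 4 of HOM fathers and 6.44, 6.56, 6.59 and 6.58 in embryos 1 to 4 of HET fathers. All 4 embryos of HOM fathers were below the lowest embryo of HET fathers, with means of 6.29 ± 0.095 and 6.54 ± 0.067 (SD, n = 4 each) and a difference of -0.25. The second probe (A_55_P2105371) gave 3.04, 2.95, 3.09 and 3.09 against 3.14, 3.20, 3.16 and 3.27. Its groups were also apart, with a difference of -0.15 between means. From embryo to embryo within groups the 2 probes did not follow each other (Pearson r = -0.04 over 8 embryos after the group means were removed, a description). Both *Dlk1* differences kept their direction under every alternative run, but with the other background correction they were close to 0, at -0.05 and -0.0039.

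*Rtl1*, a retrotransposon-derived gene that placental capillaries require, had 1 probe, and no array showed it well above background. Its values, from -7.91 to -6.73, are at the floor of the arrays and have no order. It was left out of the tests.

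*Dio3* codes for the deiodinase that inactivates thyroid hormone. Its probe (A_55_P2091468) gave -2.06, -2.54, -1.80 and -2.38 in embryos of HOM fathers and -2.18, -2.50, -2.88 and -2.42 in embryos of HET fathers. The groups overlapped, with a difference of 0.30 that was smaller than the SD of 0.33 within the HOM father group. Of the 8 probes this was the one with the widest spread within groups, a pooled SD of 0.31 that exceeded that of 84.7% of all tested probes, and without 1 embryo at a time its difference ran from 0.17 to 0.41.

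*Meg3*, the long non-coding RNA at the head of the maternal transcripts, was read by 3 probes, and they did not give 1 answer. The first (A_51_P455997) gave 4.78, 4.70, 4.70 and 4.64 against 4.71, 4.93, 5.01 and 4.98. Embryo 1 of the HET fathers lay among the embryos of HOM fathers and the other 3 lay above them all, a difference of -0.20 between means of 4.70 ± 0.061 and 4.91 ± 0.14. The second probe (A_55_P2033407), with 1.65, 1.64, 1.64 and 1.53 against 1.44, 1.67, 1.78 and 1.61, differed by -0.015. The third (A_52_P196568), which carries a different transcript accession of the gene, gave -0.44, -0.76, -0.58 and -0.43 against -0.84, -0.52, -0.56 and -0.55, a difference of 0.066. Within groups, over 8 embryos and with the group means removed, Pearson r was 0.89 between the first and second, 0.61 between A_51_P455997 and A_52_P196568 and 0.44 between A_55_P2033407 and A_52_P196568, which are descriptions.

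*Mirg*, whose bounds hold 19 of the mature microRNAs, had 1 probe matched by accession (A_66_P121059). It gave 3.78, 3.86, 3.59 and 3.71 in embryos of HOM fathers and 3.75, 3.74, 3.83 and 3.75 in embryos of HET fathers. The groups overlapped and differed by -0.035. The sign of the difference was not stable for *Mirg* or for the *Meg3* probes A_55_P2033407 and A_52_P196568, each of which changed sign under 3 of 19 alternatives. For *Mirg* these were quantile normalisation, the other background correction and leaving out embryo 3 of the HOM fathers.

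*Begain* had the largest difference of the 8 probes. Its probe (A_55_P2062437) gave -0.66, -0.95, -0.68 and -0.69 in embryos of HOM fathers and -0.50, -0.50, -0.44 and -0.30 in embryos of HET fathers. The groups did not overlap, with means of -0.75 ± 0.14 and -0.43 ± 0.093, a ratio of 0.80. Its groups stayed apart under each scaling and background correction run.

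**Figure D1:**
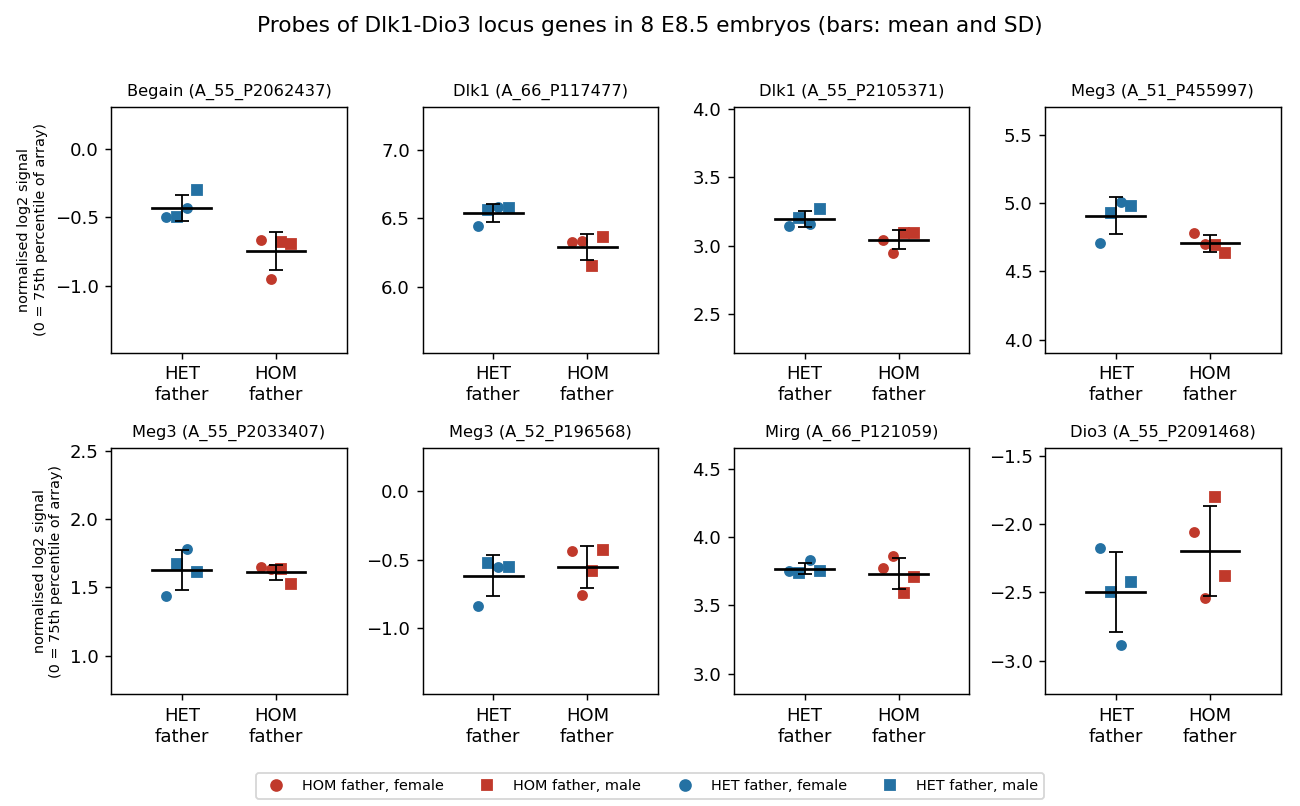
Normalised log2 signal (0 is the 75th percentile of the array) of the 8 tested probes in each embryo, blue for HET fathers and red for HOM fathers, with circles for females and squares for males. Every panel spans the same height, black bars give the mean and SD of 4 embryos, and the groups are apart only for *Begain* and the 2 *Dlk1* probes.

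The sex of the embryo was not used to choose the genes and was balanced over the father groups. In the HOM father group both males had the same leading number of the sample identifier, and neither female had it. Within that group sex and this number cannot be told apart. Fitted with father as a covariate, 0 of the 8 probes were called between females and males by limma (adjusted p below 0.01 and 2-fold), where 0.0606% of all tested probes were called. The differences, female minus male, ran from -0.14 (*Dio3*) to 0.10 (*Mirg*). At an unadjusted p below 0.05 the count was 0 of 8, where 5.22% of all tested probes fell, and the smallest adjusted p was 0.914. Under single alternatives 1 probe passed the unadjusted limit, *Dlk1* (A_55_P2105371) with quantile normalisation or with an intensity trend, *Mirg* with median centring and *Dio3* with the replicate number as a block.

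Whether the father difference itself differed between the sexes was tested by an interaction term. By limma 0 of the 8 probes passed an adjusted p below 0.01, as did 0% of all tested probes, and 0 of 8 passed an unadjusted p below 0.05, where 4.52% of all tested probes did. The first *Dlk1* probe differed by father by -0.18 in females and -0.31 in males, and *Begain* by -0.34 and -0.29. The first *Meg3* probe differed by -0.11 in females and -0.29 in males, and without embryo 3 of the HET fathers this was the 1 probe past the unadjusted limit. With 2 embryos per sex and father, a p above the limit does not show that the sexes were alike.

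The largest differences at the domain came from interval probes, 3 of them on 1 strand of 1 interval. Of 104 probes in 22 combinations of interval and strand, 51 passed the expression filter and 31 were at background on every array. The median difference of the 51 was -0.02, as over all probes tested. The study's limits called 3 of the 51, all higher in embryos of HOM fathers, and all 3 were probes of the forward strand of chr12:111287772-111333890 (46119 bases, mm9). Over the whole array 137 of 5218 tested interval probes (2.63%) were called. Since the choice of this domain rested on this contrast, nothing is read from these shares.

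All 8 arrays showed these 3 probes well above background. A_30_P01024078 gave -1.36, -1.25, -1.64 and -1.32 in embryos of HOM fathers and -4.28, -3.93, -4.41 and -4.30 in embryos of HET fathers, a difference of 2.84 or 7.16-fold. A_30_P01026947 gave -0.52, -0.71, -0.88 and -0.75 against -3.04, -3.95, -3.70 and -3.43, a difference of 2.81 or 7.03-fold. For both probes the lowest embryo of HOM fathers was more than 2 log2 units above the highest embryo of HET fathers. A_30_P01030769 gave -0.11, 0.035, -0.19 and -0.22 against -1.68, -2.08, -2.00 and -1.81, a smaller difference of 1.77 or 3.41-fold. By sex the 3 differences were 3.04, 2.76 and 1.80 in females and 2.64, 2.87 and 1.74 in males. Over the alternatives they ran from 2.00 to 2.94, from 2.22 to 2.98 and from 1.53 to 1.84, each lowest with the other background correction. With the position of the array on its slide as a block, a fit that leaves few degrees of freedom, 0 of the 3 were called. Of all tested probes 16 had a larger difference than A_30_P01024078, among them 4 interval probes.

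The other 7 probes of the same strand did not pass the filter. Probes A_30_P01021913 and A_30_P01033179 were well above background in 2 of 4 embryos of HOM fathers and in 0 of 4 of HET fathers, so that their fold is uncertain. With HET values raised to the lowest signal well above background on their array, the first was 1.12-fold higher and the other 1.03-fold. All 4 HOM values were used as measured, also those not well above background, so these are not strict bounds. The measured values were -5.09, -4.92, -4.86 and -4.17 against -7.73, -7.08, -6.88 and -6.86 for the first. They were -4.73, -4.60, -5.11 and -5.07 against -7.09, -7.16, -6.87 and -6.85 for the second. Of the other 5, 4 were at background throughout and A_30_P01020165 was well above it in 1 embryo of each group. On the reverse strand of the interval 7 of 8 probes were at background throughout. The remaining probe, A_30_P01030840, was well above it in 2 embryos of HOM fathers and 1 of HET fathers, with -4.72, -5.13, -4.79 and -4.02 against -5.33, -6.01, -5.53 and -5.80. Signal above background in this interval thus came mainly from the forward strand and from some of its probes, and the files do not say where within the interval each probe lies.

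A shorter interval on the forward strand lies inside it, chr12:111322030-111323387 (1358 bases). Its probe A_30_P01022083 gave -2.89, -3.05, -2.74 and -3.12 against -3.67, -3.89, -3.41 and -3.91, a difference of 0.77. Probe A_30_P01028950 gave -3.44, -3.43, -3.53 and -3.15 against -3.75, -4.10, -3.72 and -4.06, a difference of 0.52. Both were higher in every embryo of HOM fathers, by less than 2-fold, with signal above background throughout. The other probe of this interval had none.

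**Figure D2:**
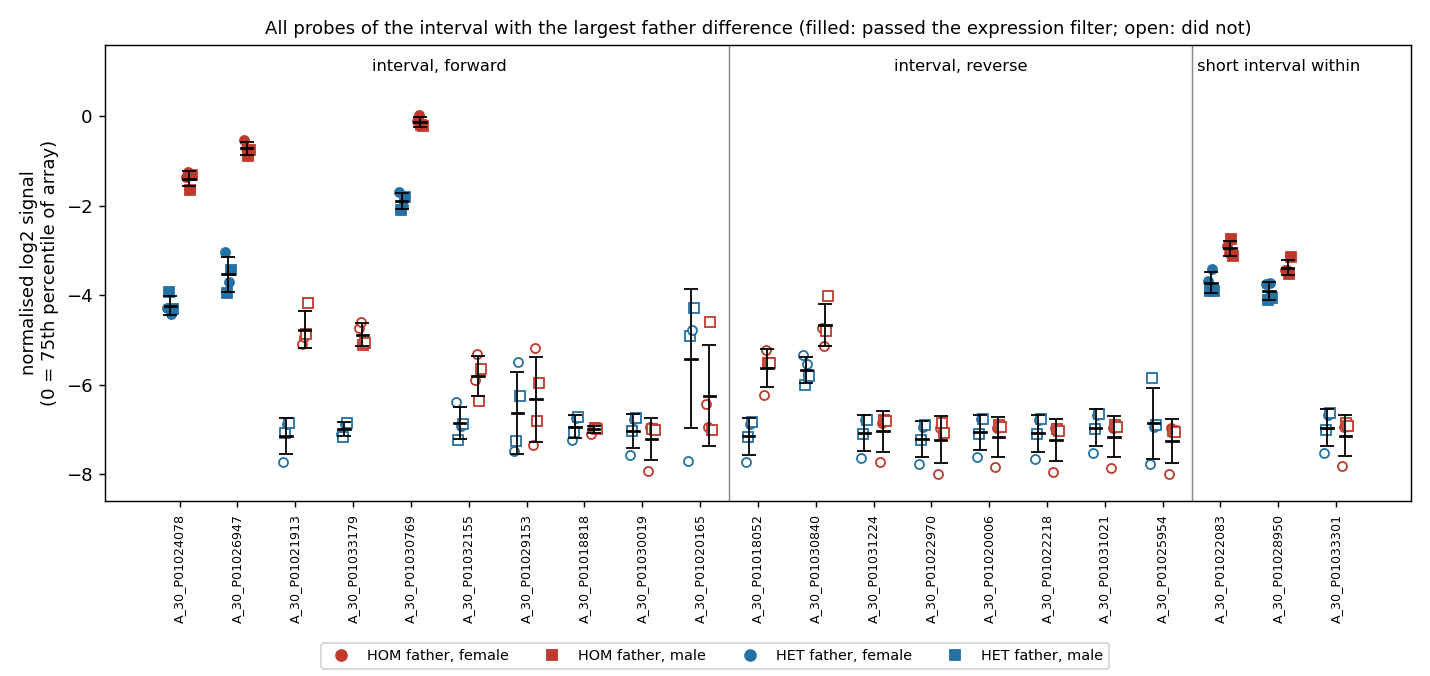
Normalised log2 signal of every probe named by chr12:111287772-111333890, forward then reverse strand, and by the short interval inside it, in each embryo (colours and symbols by father and sex, black bars mean and SD of 4 embryos). Filled symbols mark probes that passed the expression filter, and the 3 forward probes with the largest differences stand next to probes at the floor near -7.

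Outside the long interval 48 tested probes had a median difference of -0.04, with a range of -0.88 to 0.77, and 0 were called. Of these, 5 further probes beside the 2 of the short interval had groups that did not overlap, and 4 of the 5 were higher in embryos of HOM fathers. Groups were thus apart for 7 of the 48, where they were apart in either direction for 27.1% of all tested probes. On the reverse strand of chr12:110870903-110891628, A_30_P01025258 gave -0.59, -0.88, -0.97 and -0.46 against -1.52, -1.15, -0.98 and -1.27, a difference of 0.50. On the reverse strand of chr12:110896603-110940553, A_30_P01027471 gave -3.08, -3.14, -3.26 and -3.16 against -3.61, -3.32, -4.22 and -3.96, a difference of 0.61. In both, the nearest embryos of the groups almost touched (-0.97 and -0.98, then -3.26 and -3.32).

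On the forward strand of chr12:110944403-110988678 all 10 probes passed the filter and their differences ran from -0.36 to 0.51. Within it A_30_P01031858 gave -4.22, -3.99, -3.97 and -3.92 against -4.45, -4.74, -4.50 and -4.47, and A_30_P01027949 gave 0.32, 0.17, 0.025 and 0.21 against -0.12, -0.12, 0.022 and -0.11. Their differences were 0.51 and 0.26, and for A_30_P01027949 the groups touched. The probe that was lower was A_30_P01032789 on the forward strand of chr12:110894095-110899517, with 1.33, 1.45, 1.25 and 1.39 against 1.56, 1.59, 1.89 and 2.03, a difference of -0.41. The other probe of that interval differed by -0.14 with overlapping groups.

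The groups of all other tested probes of the window overlapped. The highest difference among these was 0.66, for A_30_P01026499 on the forward strand of chr12:110845020-110850870, which gave -3.93, -4.57, -4.26 and -4.07 against -4.39, -5.80, -4.60 and -4.67 and was well above background in 4 embryos of HOM fathers and 2 of HET fathers. On the reverse strand of that interval 3 probes lay between -0.12 and 0.28. The 2 probes on the forward strand of chr12:110870903-110891628 differed by -0.36 and 0.20, and on its reverse strand the lowest of 3 was -0.22. The forward strand of chr12:110896603-110940553 had 4 probes between -0.88 and 0.11, and the reverse strand of chr12:110944403-110988678 had 5 between -0.08 and 0.34. The 2 tested probes on the reverse strand of chr12:110738120-110769295 lay at -0.12 and 0.14, and the 2 on the forward strand of chr12:110967974-110969051 at -0.16 and 0.14. The forward strand of chr12:110842149-110845695 had 3 probes between -0.12 and -0.05, chr12:110842154-110883594 had 2 probes between -0.24 and -0.22, chr12:110909258-110913909 had 3 probes between -0.01 and 0.15, and chr12:110973190-110987668 had 3 probes between -0.17 and 0.12. The lowest value of the window, -0.88 for A_30_P01020294, came from 1 embryo. That probe gave -0.20 in embryo 2 of the HET fathers and between -4.03 and -3.65 in the other 7. The same embryo was the highest of the 8 for A_30_P01033029 (-2.09) and A_30_P01023364 (-2.40).

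**Figure D3:**
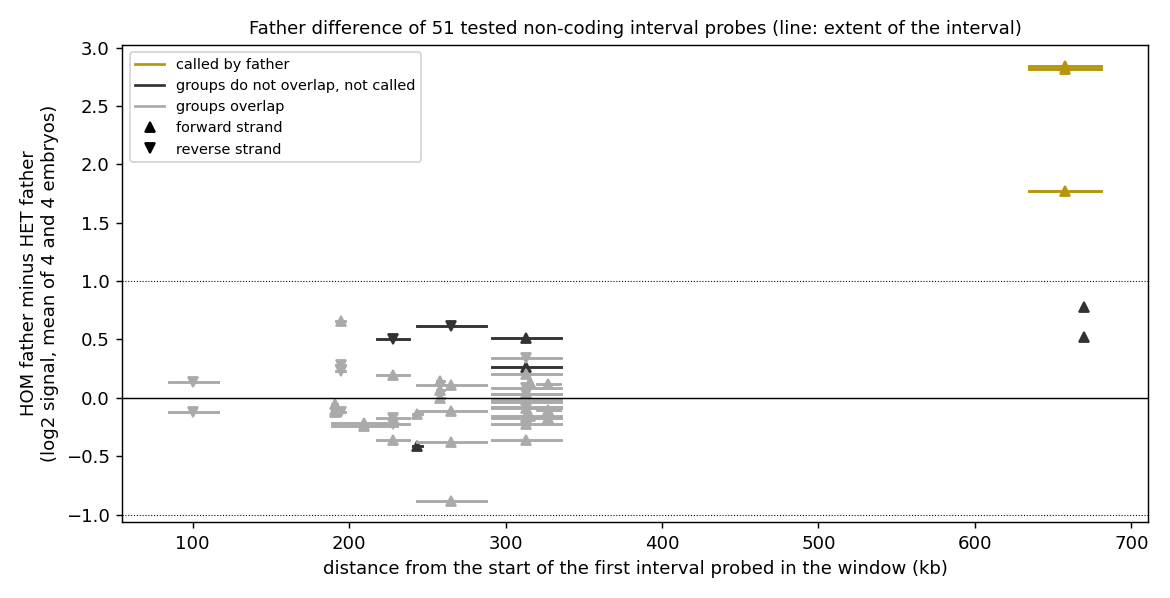
Father difference (HOM minus HET, log2 signal, means of 4 embryos each) of the 51 tested interval probes against the distance of their interval from the first interval of the window, in kb. Each line spans an interval and the triangle points up for the forward and down for the reverse strand. The 3 called probes of 1 interval stand at 1.77 to 2.84, and the others lie between -0.88 and 0.77.

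Genes around the domain and in pathways that touch it were taken from fixed lists and read by the brightest tested probe of each gene. Of 21 tested genes that flank the domain 0 were called by father, with a median difference of -0.09. The differences ran from -0.34 to 0.46. Groups were apart for 5 of the 21, close to the 27.1% of all tested probes, and the 3 with the largest difference were *Cyp46a1*, a cholesterol hydroxylase gene (0.46, adjusted p = 0.0122), *Ankrd9* (-0.22, adjusted p = 0.0776) and *Hsp90aa1*, which codes for a chaperone (-0.21, adjusted p = 0.0449), all by limma over all tested probes.

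Of 19 tested genes for imprint maintenance and for the Polycomb complex 0 were called, with a median of -0.06 and a range of -0.34 to 0.93. The highest value, that of *Dnmt3l*, came with overlapping groups (limma adjusted p = 0.345). *Eed* itself, at 4.72 ± 0.058 and 4.71 ± 0.045, differed by 0.014 (limma adjusted p = 0.87) between embryos that by label carry the same *Eed* genotype. *Tet3* (0.41, adjusted p = 0.029), *Tet1* (-0.34, adjusted p = 0.0329) and *Dnmt1* (-0.26, adjusted p = 0.0294), which code for enzymes that oxidise or copy DNA methylation, had the largest differences of the 6 genes whose groups were apart, a count close to the 27.1% of all tested probes.

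Of 20 tested Notch pathway genes 0 were called, with a median of -0.10 and a range of -0.60 (*Notch1*) to 0.60 (*Dll4*), both with overlapping groups. Groups were apart for 4 of the 20, below the 27.1% of all tested probes. The 3 named by the fixed rule were the somite clock gene *Hes7* (-0.35, adjusted p = 0.0124), *Hes1* (0.29, adjusted p = 0.0492) and the receptor *Notch3* (-0.14, adjusted p = 0.123). Of 7 tested thyroid hormone genes 0 were called, and *Ncor1*, the corepressor of unliganded thyroid receptors, was the only 1 with groups apart (-0.29, limma adjusted p = 0.00875, short of 2-fold).

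Imprinted genes elsewhere spanned a wider range than those of the domain. They were more in number, which by itself can widen a range, and no test compared them. Of 20 tested paternally expressed genes 0 were called, with a median of -0.05 and a range of -0.57 to 0.28, and the 2 with groups apart were the non-coding RNA *Kcnq1ot1* (-0.57, limma adjusted p = 0.00923) and *Sgce* (-0.34, adjusted p = 0.0603). Of 17 tested maternally expressed genes 0 were called, with a median of -0.11 and a range of -0.33 to 1.04. The highest was *Kcnq1*, a potassium channel gene whose groups overlapped (limma adjusted p = 0.237), and the 3 with groups apart were *Blcap* (0.52, adjusted p = 0.0147), *Ppp1r9a* (-0.33, adjusted p = 0.00521) and *Tssc4* (-0.31, adjusted p = 0.00812). Both counts were below the 27.1% of all tested probes. *Dnmt3l*, *Notch1*, *Dll4* and *Kcnq1* were named after their values were seen, as the extremes of their lists.

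**Figure D4:**
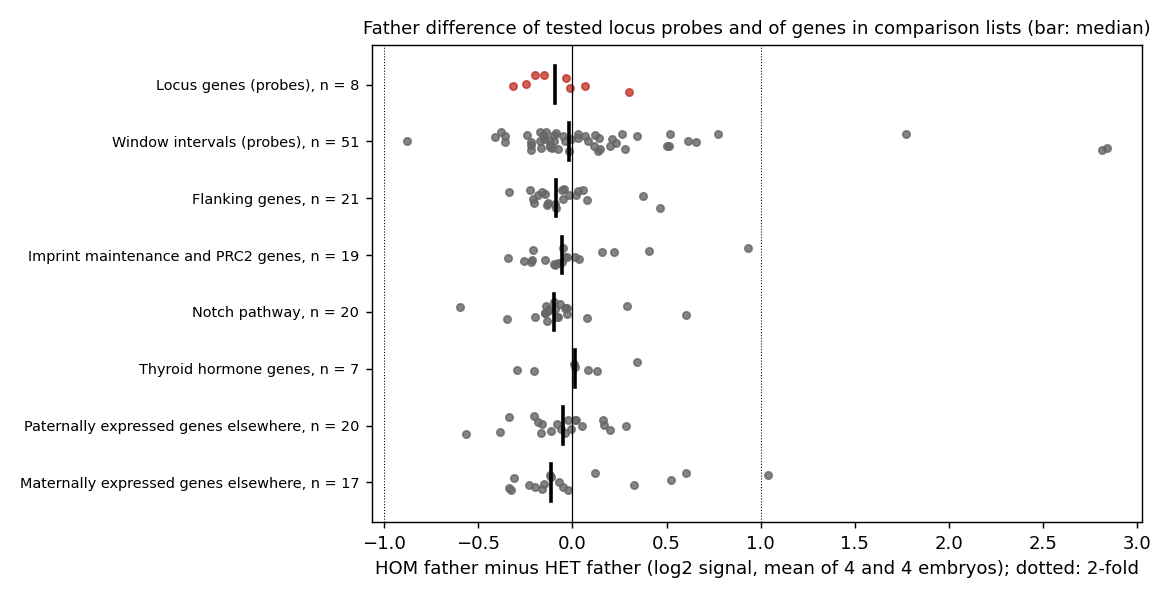
Father difference (log2 signal) of the 8 tested probes of the domain (red), the 51 tested interval probes and the tested genes of 6 comparison lists (grey), with the median of each as a bar and 2-fold as dotted lines. The domain genes lie between -0.31 and 0.30, and the 3 values above 1.5 belong to the interval probes.

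Markers of the tissue were present, 10 of 11 embryo markers standing well above background throughout and *En1* nowhere. The 10 summed to between 4.94 and 5.01 (log2) in embryos of HOM fathers and between 5.01 and 5.15 in embryos of HET fathers. Their median difference by father was -0.10, and 3 of the 10 were lower in every embryo of HOM fathers, as were 13.0% of all tested probes. The 6 primitive erythroid markers summed to between 9.25 and 9.62 (log2) in embryos of HOM fathers and between 9.61 and 9.67 in embryos of HET fathers. Their median difference was -0.29, and 2 of the 6 were lower in every embryo of HOM fathers. The 7 markers of yolk sac visceral endoderm, all above background throughout, summed to between 8.84 and 9.16 and between 9.02 and 9.11. Their median difference was -0.12, and 1 of the 7 was lower in every embryo of HOM fathers. Trophoblast markers, 5 of 6 above background and *Tpbpa* on no array, summed to between 3.37 and 4.38 and between 4.10 and 4.83. The 5 differed by father by -1.07 to 1.88, with a median of -0.18, and 0 were called. At the ends stood the trophoblast transcription factor *Gcm1*, which was lower in every embryo of HOM fathers (-1.07, limma adjusted p = 0.0217), and the giant cell prolactin gene *Prl3d1* with overlapping groups (1.88, adjusted p = 0.208). The decidual prolactin gene *Prl8a2* ranged from 0.29 to 4.45 in embryos of HOM fathers and from -3.99 to 1.88 in embryos of HET fathers, a difference of 2.97 (limma adjusted p = 0.215) in the same direction as the called interval probes, and *Prl3c1* was at background throughout. The part of these tissues in the values of the domain and its intervals was not tested.

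Genes whose signal most closely followed the first *Meg3* probe or the first *Dlk1* probe within father groups were ranked over 19009 tested probes with a gene name. The second *Dlk1* probe did not follow the first (Pearson r = -0.04), so the ranking stands for single probes and not for the domain. For the first *Meg3* probe they were *Nacc1* (Pearson r = 0.986), *Nup160* (0.983), *Tbcel* (0.983), *Letm1* (0.976) and *Kbtbd3* (0.971). For the first *Dlk1* probe they were *Mob1b* (0.978), *Selenow* (0.972), *Cubn* (0.972), *Pdlim1* (0.969) and *Olfr224* (0.967). Of these, *Cubn* is among the yolk sac markers above. With 8 embryos and so many probes ranked, these values only describe these arrays.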

How the data were processed

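Whole E8.5 embryos (4 of HOM and 4 of HET fathers) were each measured on 1 Agilent SurePrint array. Per the labels 0.2 µg of RNA was labelled. The deposited scanner tables hold spot intensity on a linear scale, made by the authors with Agilent Feature Extraction 11.0.1.1, with background subtracted and no scaling between arrays. The deposited flags of each spot (other values, 0 or 1) were used as filters. The deposited series table held the same intensities to within 0.5% and was used as an alternative.

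From 59305 non-control spots, those with an outlier flag were left out. Log2 signals were shifted so that the 75th percentile of an array is 0, and spots of 1 probe were averaged, which gave 55681 probes. Tests were limited to the 29715 probes that on 4 or more of 8 arrays were flagged well above background and reached the 20th percentile. Fits used limma 3.58.1 in R 4.3.3 (lmFit, eBayes, two-sided, Benjamini-Hochberg), checked on simulated data. Accessions were matched to RefSeq genes of GRCm38.p6 (27235 probes). Beyond the spacing of the starts of *Rian* and *Mirg*, no RefSeq coordinates were set against the mm9 intervals of the array. Groups, sex and replicate numbers came from the labels, and the number of arrays limits the precision.

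The genes, lists, tests and alternatives were chosen with earlier results of these data known. The rule for naming took every probe of the 7 genes and of the window, called genes of each list and up to 3 others with groups apart and the largest difference. It also took the 5 probes most like the first probe of *Meg3* and of *Dlk1*. Interval probes with overlapping groups were given by range, except those at the ends of the range. Alternatives covered scaling, background correction, filter, variance model, sex as a covariate, the leading number of the sample identifier, replicate number and slide position as blocks, the limits of a call and each embryo left out. Probe sequences were not used here.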

Additional observations from a re-analysis of the deposited data

Results flagged for a closer look

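In 118 groups of 4 embryos, 1 per tested probe of the domain and father group, the most distant embryo was set against the other 3 by Dixon's ratio, which chance passes in about 1 of 20 groups. It was passed in 9 (7.63%). Among the genes these were the second *Meg3* probe (A_55_P2033407), at 1.53 in embryo 4 of the HOM fathers against 1.64 to 1.65 in the others, and the third (A_52_P196568), at -0.84 in embryo 1 of the HET fathers against -0.56 to -0.52. *Mirg* stood at 3.83 in embryo 3 of the HET fathers against 3.74 to 3.75, and *Begain* at -0.95 in embryo 2 of the HOM fathers against -0.69 to -0.66.

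Among the interval probes the widest gap was that of A_30_P01020294, at -0.20 in embryo 2 of the HET fathers and -3.93 to -3.85 in the other 3. A_30_P01030828 stood at -3.34 in embryo 2 of the HOM fathers. In embryo 3 of the HET fathers A_30_P01027949 stood at 0.02 and A_30_P01019374 at -2.88, and in embryo 4 of the HET fathers A_30_P01029937 stood at -1.97.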

How the results depend on the processing

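No domain gene was called by father under the study's limits in any alternative, and the count of interval probes was 3 in all but 2 of those run at these limits. With slide position as a block the interval count was 0, and without a filter 5. With no fold limit the interval probes called were 5 at an adjusted p below 0.01 and 10 below 0.05, the genes' probes 2 (*Dlk1* and *Begain*) below 0.05, and genes of the comparison lists 4 and 15. The share of all tested probes that passes without a fold limit is not given here, so nothing is read from these counts. Probes of the genes with groups apart numbered 3, against 1 with quantile normalisation, 5 with median centring and 1 with normexp, and interval probes 10, against 16 without a filter. Probes by sex at an unadjusted p below 0.05 numbered 0, against 1 with each of quantile normalisation, median centring, an intensity trend and the replicate block. For the interaction the count ran from 0 to 1 with each embryo left out, and 1 came without embryo 3 of the HET fathers. The causes were not tested.

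Same-numbered embryos did not deviate together (correlations 0.19, -0.09, -0.13 and 0.15), so the replicate block pairs only numbers, and with it the genes' probes called by father numbered 0 and the interval probes 3. Of 1114 recomputed father differences 1060 moved by less than the spread between embryos and 54 by more. Normexp used the median spot signal, chosen after seeing the data, and was not run on the mean signal. The interaction could not be fitted with slide position. Signal near background limits the interval probes most, since 53 of 104 did not pass the filter.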
